A study of Drosophila melanogaster with 2 samples.

Results

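Relaxed peaks are the weak and strong regions that a peak caller passes on before any test of reproducibility. In this study 287 of 30000 relaxed peaks called on both replicates together had their summit inside an annotated transposable element. These 287 peaks, 0.957% of the list (95% Wilson interval 0.853 to 1.07%), are called element peaks here. They were found by position alone: the summit of each peak was compared with the elements of Ensembl release 115 on genome build dm6, and no measured value entered the choice. Chromatin immunoprecipitation with sequencing (ChIP-seq) had been done on Drosophila melanogaster embryos of 0 to 24 h, of both sexes, from a line stably expressing CG13123 as a fusion to green fluorescent protein (GFP). The description names an antibody to GFP, while the antibody label gives CG13123. There was 1 group, biological replicates 2 and 3, so comparisons are between element peaks and all relaxed peaks. Peaks were called against a control that was not analysed here, and read depth is unknown. For the fusion's promoter and the genotype at the native CG13123 gene the sources used here give nothing.

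Transposable elements are mobile DNA sequences. Retrotransposons copy themselves through RNA and either carry long terminal repeats (LTRs) or resemble the LINE elements of mammals, DNA transposons move by excision, and Helitron-like elements such as INE-1 move by a replicating mechanism of their own. In the fly they are densest next to the centromeres and on the small chromosome 4, where most of them sit in heterochromatin and are kept silent, in the germline chiefly by piRNAs. INE-1 is an old family whose short copies have diverged from each other, while many retrotransposon copies are young and nearly identical, so that short reads from them cannot be placed at a single copy. Insertions differ between fly stocks, and the annotation is that of the reference strain.

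The 4 element peaks of highest signal were those that also belong to the list past the irreproducible discovery rate (IDR) threshold. The IDR compares the ranks of peaks between replicates. Their windows, 100 bp to each side of the summit, are shown because they are the element peaks with most signal, and the IDR list holds no others. All are from Release 6 (dm6), plus strand, 5′ to 3′, with capitals marking the bases inside the annotated element. They lie at chr2L:4030556-4030756 (INE-1{}4982), chr2L:9503206-9503406 (INE-1{}6181), chr2L:21149180-21149380 (HB{}482) and chrX:8295106-8295306 (H{}84).
INE-1{}4982: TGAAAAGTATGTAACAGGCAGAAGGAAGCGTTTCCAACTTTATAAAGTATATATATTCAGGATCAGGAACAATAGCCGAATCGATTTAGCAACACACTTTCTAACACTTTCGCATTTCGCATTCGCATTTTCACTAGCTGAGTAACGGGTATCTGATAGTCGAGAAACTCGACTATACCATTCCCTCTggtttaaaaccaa
INE-1{}6181: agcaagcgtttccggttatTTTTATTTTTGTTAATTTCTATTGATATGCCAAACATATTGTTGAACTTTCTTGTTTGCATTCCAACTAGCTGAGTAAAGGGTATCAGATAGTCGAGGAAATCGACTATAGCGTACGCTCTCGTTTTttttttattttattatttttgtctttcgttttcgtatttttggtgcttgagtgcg
HB{}482: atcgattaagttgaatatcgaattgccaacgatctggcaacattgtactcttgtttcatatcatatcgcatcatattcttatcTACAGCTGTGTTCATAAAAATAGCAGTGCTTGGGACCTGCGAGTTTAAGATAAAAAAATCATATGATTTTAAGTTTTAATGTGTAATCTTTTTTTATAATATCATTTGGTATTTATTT
H{}84: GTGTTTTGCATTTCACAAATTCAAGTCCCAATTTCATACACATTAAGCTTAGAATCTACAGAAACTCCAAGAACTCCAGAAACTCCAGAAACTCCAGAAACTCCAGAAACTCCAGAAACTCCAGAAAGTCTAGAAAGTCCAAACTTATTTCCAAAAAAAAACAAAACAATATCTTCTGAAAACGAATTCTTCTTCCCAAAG

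The names give the family before the braces and the copy number after them. The windows of the 2 INE-1 peaks share an ungapped stretch of 61 bases with 52 identical (85.2%), shown here with capitals at the bases that differ. For INE-1{}4982 it lies at chr2L:4030688-4030748, downstream of the summit, and runs past the end of the annotated copy at 4030743. In INE-1{}6181 it lies at chr2L:9503290-9503350, across the summit.
INE-1{}4982: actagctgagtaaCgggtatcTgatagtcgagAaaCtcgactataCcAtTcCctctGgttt
INE-1{}6181: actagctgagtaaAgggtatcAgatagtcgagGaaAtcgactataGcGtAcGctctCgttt
The longest run common to both, the first 13 bases of the stretch (actagctgagtaa), was chosen after these peaks were seen. It occurred on either strand in 24 of 157 windows of INE-1 peaks (15.3%), in 0 of 130 windows of other element peaks and in 32 of 30000 windows of all relaxed peaks (0.107%). Whole INE-1 copies were also searched, counted once for each of the 157 INE-1 peaks, which lie in 152 copies. The copy held the run for 40 of these peaks (25.5%). Among annotated copies it was in 297 of all 2235 (13.3%) and 19.8% of those of at least 200 bp, and longer copies have more room for it.

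INE-1{}4982 was the strongest element peak, with a signal of 145 in the pooled list, 92.9 in replicate 2 and 52.8 in replicate 3. This signal was computed by the authors for each peak on a scale they do not state in the labels, so ranks within a list are the comparable quantity. By rank it stood at percentile 97.3 of the pooled list, 97.6 of replicate 2 and 96.2 of replicate 3. The 231-bp INE-1 copy lies between genes, 721 bp from the nearest transcription start site (TSS), that of ed, which encodes the immunoglobulin-family cell adhesion protein Echinoid. INE-1{}6181 had a signal of 83.7 pooled, 50.4 in replicate 2 and 31.7 in replicate 3, in an intron of CG33298. Its copy is 127 bp long and covered 31.8% of the peak, so most of that peak is sequence next to the element. HB{}482, in a DNA transposon of the Tc1-like group, reached 80.4 pooled, 46.3 in replicate 2 and 34.1 in replicate 3. Its summit lay 17 bp inside the edge of the 1160-bp copy and 734 bp from the TSS of del, which encodes Deadlock, a protein of the piRNA pathway. All 3 peaks stood at percentile 90.1 or higher in each replicate, and their replicate summits lay 0 to 54 bp from the pooled summits.

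H{}84, in the DNA transposon hobo, did not place its summits as closely. Its pooled signal was 79.5, replicate 3 had a summit 5 bp away with a signal of 27.9, and the nearest summit of replicate 2 was 113 bp away with a signal of 57.8. The hobo copy is 2981 bp long, lies in an intron of nAChRalpha3, a nicotinic acetylcholine receptor subunit gene, and held 3 element peaks, the others with signals of 37.7 and 40.5. The window of H{}84 holds the 9-base unit AACTCCAGA repeated 6 times in a row, from 29 bp before to 24 bp after the summit. A unit of 5 to 12 bases at least 3 times in a row occurred in 1 of 287 windows of element peaks (0.348%), this one, against 1266 of 30000 windows of all relaxed peaks (4.22%). Reads within such a repeat can be shifted by a unit, and whether this bears on the spread of the summits was not tested.

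The next strongest element peaks lay below the IDR list, whose lowest signal was 75.5. INE-1{}1865 in an intron of Ten-a, a teneurin gene of synapse formation, had a signal of 69.5 pooled, 40.5 in replicate 2 and 28.8 in replicate 3. By the sum of its ranks in both replicates this was the highest peak outside the IDR list, with summits 2 and 35 bp from the pooled one. Tc1-2{}4132, 321 bp from the TSS of CG3987, reached 60.2 pooled, 35.4 in replicate 2 and 22.5 in replicate 3. gypsy10{}5204 in an intron of CG17528, the only LTR retrotransposon among the 10 strongest element peaks, had 51.0 pooled, 30.6 in replicate 2 and 19.6 in replicate 3. Both were present in both replicates, at percentile 77.1 or higher.

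Other strong peaks rested on fewer lists. jockey{}1450, 341 bp from the TSS of Cnx99A, a calnexin chaperone gene, had 67.6 pooled and 69.0 in replicate 2, while the nearest summit of replicate 3 lay 265 bp away with a signal of 69.7. An IDR summit lay 269 bp from it, outside the element. INE-1{}5653 in an intron of CG6040 had 56.6 pooled and no summit within 100 bp in either replicate, the nearest being 104 bp away in replicate 2 and 115 bp away in replicate 3. INE-1{}3976 on chromosome 4, in an intron of Cadps, a gene of dense-core vesicle release, had 53.4 pooled and 34.3 in replicate 2, and its nearest summit in replicate 3 was 117 bp away. For the 2 INE-1 peaks the nearest summits thus lay just past the 100-bp limit that counted as present.

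The highest peaks of the other large families had lower signals. Tc1{}172, 164 bp from the TSS of CG14229, had 45.1 pooled, 22 in replicate 2 and 19.0 in replicate 3. 1360{}4747 had 36.1 pooled, 27.1 in replicate 2 and 10.3 in replicate 3, the last being at percentile 10.6 of its list. Cr1a{}1177, in an intron of nAChRalpha4, had 33.6 pooled, 13.8 in replicate 2 and 12.2 in replicate 3, and its summit aligned to no other Cr1a copy. FB{}250 had 32.2 pooled and 18.5 in replicate 3, with the nearest summit of replicate 2 at 562 bp. S{}2327, 274 bp from the TSS of Eato, had 25.2 pooled and 13.1 in replicate 2, and its nearest summit in replicate 3 was 300 bp away. None of these 5 exceeded percentile 79.0 of the pooled list, and 3 of them had summits in both replicates.

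Over all 287 members, signals were low and few reached the IDR list. Of the 287, 4 were in that list (1.39%, interval 0.543 to 3.53%), against 9.01% of all relaxed peaks. The IDR list equals the 2704 peaks of highest pooled signal, so membership repeats the signal rank. The median signal of element peaks was 24.9, with quartiles of 21.6 and 30.6, against a median of 28.5 and quartiles of 23.0 and 40.9 for all relaxed peaks. Their median percentile was 35.2. In the replicates' own lists the elements held 261 peaks of replicate 2 and 331 of replicate 3, with median percentiles of 38.9 and 35.8. The median deposited −log10 q-value was 0.300 for element peaks and 0.399 for all relaxed peaks, so at the median neither would pass a usual q-value threshold.

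**Figure D1:**
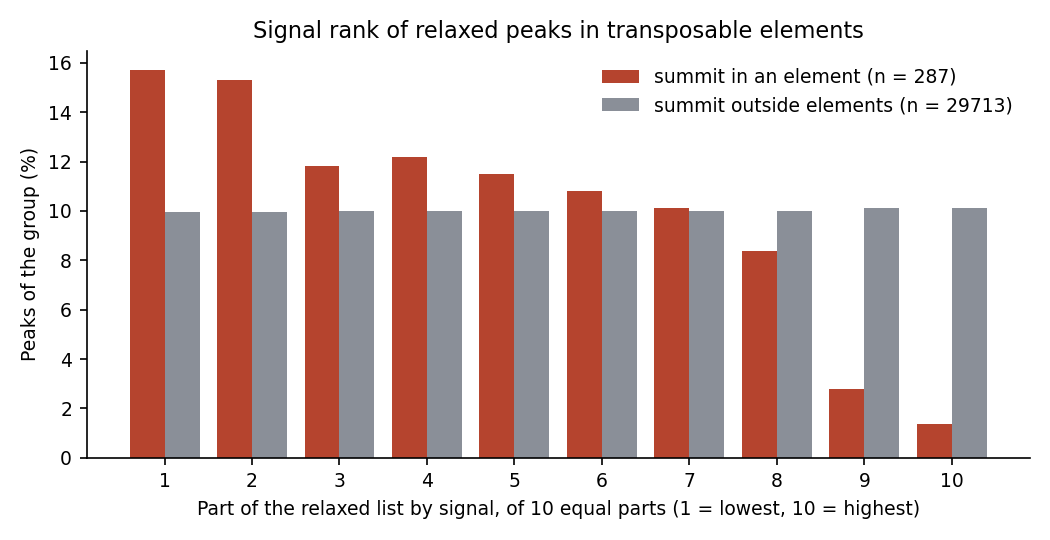
Share of each group of relaxed peaks (y axis, %) in each of 10 equal parts of the pooled relaxed list by signal (x axis, 1 lowest), for peaks with the summit in an element (red) and outside elements (grey). Element peaks were 15.7% in the lowest part and 1.39% in the highest, against 9.95% and 10.1% of the peaks outside elements.

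Element peaks were found in the single replicates less often than all relaxed peaks, and their signal went with that. A summit within 100 bp was present in replicate 2 for 160 element peaks (55.7%), against 66.8% of all relaxed peaks. In replicate 3 it was present for 137 (47.7%), against 55.0%. Both replicates had it for 56 (19.5%, interval 15.3 to 24.5%), against 34.2%, and neither had it for 46 (16%), against 12.4%. At similar signal the shares were closer. The pooled list was cut by signal into 4 parts of 7500 peaks. In the part of lowest signal 1 of 108 element peaks was in both replicates (0.926%), against 1.75% of all relaxed peaks in that part. In the next part it was 9 of 83 (10.8%), against 11.3%, and in the one above 30 of 75 (40.0%), against 40.5%. In the part of highest signal 16 of 21 element peaks (76.2%) were in both, against 83.2%. The pooled list shares its reads with both replicates, so these shares are not independent of the pooled signal.

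Across the 56 element peaks present in both replicates, Spearman's rho between the replicate signals was 0.455, against 0.698 across 10259 relaxed peaks present in both. Without the 3 IDR peaks among them it was 0.357 over 53, and no value without IDR peaks was computed for all relaxed peaks. The pooled signals of the 56 ran from 22.2 to 145, while the relaxed list reached 1992. A narrower range can lower rho, and no comparison of rho at similar signal was made. The peaks share their libraries and depth, so these are descriptions only. Each replicate's own element peaks gave a similar picture: 54 of 261 in replicate 2 (20.7%) had a summit within 100 bp in replicate 3, against 34.0% of its whole list, and 58 of 331 in replicate 3 (17.5%) had one in replicate 2, against 34.0%.

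**Figure D2:**
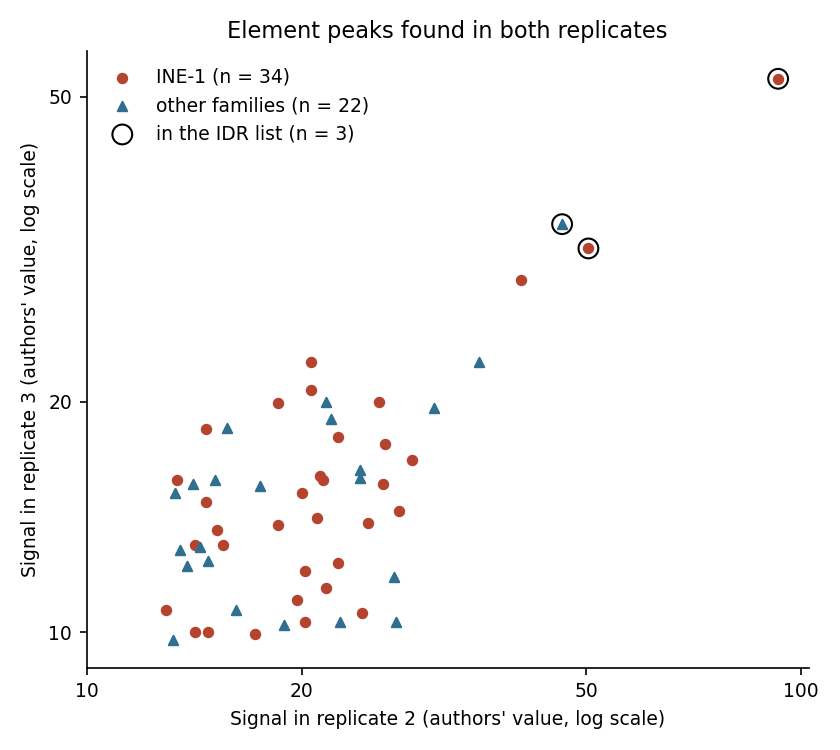
Signal in replicate 2 (x axis) and replicate 3 (y axis), both the authors' values on log scales, for the 56 element peaks with a summit within 100 bp in both replicates, with INE-1 as red points, other families as blue triangles and IDR peaks ringed. The 3 ringed peaks stand at the upper right and the rest form a loose cloud, with rho 0.455 over all 56.

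INE-1 supplied more than all other families together. It held 157 of the 287 element peaks (54.7%), in 152 of its 2235 annotated copies on the 6 chromosome arms 2L, 2R, 3L, 3R, X and 4. Per 100 kb of annotated sequence INE-1 had 28.5 relaxed peaks, against 23.6 per 100 kb of sequence outside elements. Element sequence as a whole had 3.61 per 100 kb. Peaks of INE-1 had a median signal of 25.1, from 19.4 to 145, against 24.7, from 19.3 to 80.4, for the other families. Both replicates had 34 of the INE-1 peaks. The INE-1 density rests in part on chromosome 4, with 55 of the 157 peaks and 56.5 per 100 kb, against 51.9 outside elements there. On the other arms it was lower than outside elements on 2L (23.4, against 26), 3L (19.5, against 26.1) and X (17.4, against 21.4), and higher on 2R (26.9, against 21.7) and 3R (26.2, against 21.8).

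The DNA transposons came next with 76 peaks and 8.07 per 100 kb. Their family 1360 held 18 (4.70 per 100 kb), the foldback element FB and HB 10 each (15.6 and 16), hobo (H) 7 (11.1), S 6 (7.02), Tc1 6 (18.9) and Tc3 4 (47.1 over only 8.50 kb). The LINE-like retrotransposons held 23 peaks, 1.09 per 100 kb, of which Cr1a had 8. LTR retrotransposons, the largest class with 5318 kb, held 31 peaks, or 0.583 per 100 kb. Among them roo had 6 and gypsy12 had 4. Not all of these summits align to another copy of their family. Such a match was found for 39 of the 54 LTR and LINE-like peaks together, against 254 of all 287 element peaks. It was missing for 5 of the roo peaks. The densest families with at least 5 peaks were thus INE-1, Tc1, HB, FB and H, none of them a retrotransposon. Of 155 families on the arms 48 had a peak, 25 of these a single one.

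Several families known for their place in the genome had no element peak in the pooled list. HeT-A and TART, the retrotransposons that maintain fly telomeres, had 0 in 27 copies of HeT-A and 10 of TART-A, and in the few copies of TART-B and TART-C. R1A1 and R2, which insert into ribosomal RNA genes, had 0 in 31 copies and in the single copy. copia, with 39 copies, and gypsy, with 22, also had 0. In all, 107 of the 155 families on the arms had 0. LTR retrotransposons had 0.583 peaks per 100 kb and LINE-like ones 1.09, while copia covers 169 kb, HeT-A 69.7 kb and gypsy 64.0 kb. At such densities few peaks would fall in families of this size, and whether any of them differs from its class was not tested. In replicate 3's own list gypsy had 2 peaks, and in replicate 2's own list TART-A had 1. Middles of the copies had another place in the genome at 95% identity in 92.3% of copia, 59.3% of HeT-A and 58.1% of R1A1 copies, so unmapped reads and a lack of binding cannot be told apart in such copies. The share was lower for gypsy (45.5%), TART-A (40.0%) and TART-B (0%).

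**Figure D3:**
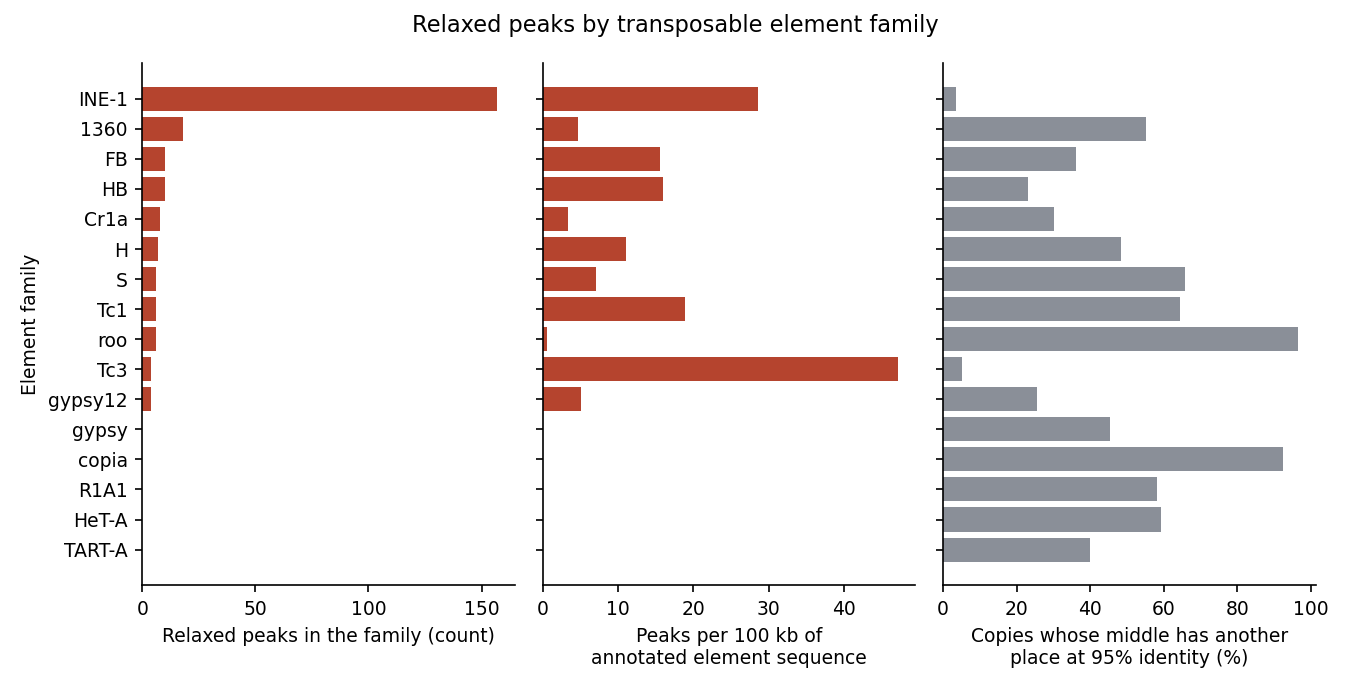
Relaxed peaks in each named family as a count (left), per 100 kb of annotated element sequence (middle), and the share of annotated copies whose middle has another place in the genome at 95% identity (right, %). INE-1 stands apart with 157 peaks and 3.62% repeated middles, while roo has 6 peaks and 96.5%. Of the roo peaks 5 lie in roo{}850, where no summit aligned to another roo copy.

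Few windows around element peaks had another near-identical place in the genome. A window of 100 bp to each side was searched against the genome for other places with at least 95% identity over at least 90% of it. In a copy shorter than the window this takes in flanking sequence, so a repeated short copy can count as having no other place. Another place at 95% identity was found for 6 of 287 element peaks (2.09%), against 2112 of 5807 middles of annotated elements (36.4%). With windows of 50 bp to each side it was 11 of 287 (3.83%). In a search with no limit on identity, 254 of 287 summit bases (88.5%) aligned to another annotated copy of the family. That shows related sequence, which reads may still tell apart. A seeded sample of 1000 relaxed summits outside elements gave 0, with an upper Wilson limit of 0.383%. The 6 element peaks were jockey{}1450 with 69 other places, roo{}1429 with 290, 1360{}835 with 132, and Tc1{}172, Tc1{}1550 and a weaker peak of H{}84 with 1 each. Elements whose middle was repeated made up 81.1% of annotated element sequence, counting nested elements separately, and held 17 element peaks, or 0.232 per 100 kb. Elements whose middle had no such place held 270, or 15.8 per 100 kb. Length enters this contrast, since middles were repeated in 7.70% of elements under 200 bp and in 92.8% of those of at least 3000 bp. No source used here says how the authors treated reads that map to several places, so a lack of mappable reads and a lack of binding in repeated elements cannot be told apart.

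Peaks per 100 kb were fewer in long copies, while the share of copies that held a peak was larger in longer copies up to a point. In INE-1 the density was 36.9 peaks per 100 kb for copies under 200 bp, 31.3 for 200 to 500 bp, 27.6 for 500 to 1000 bp, 18.3 for 1000 to 3000 bp and 2.60 for the few longer ones. In other families it was 12.5, 15, 9.96, 3.29 and 0.258 over the same lengths. Per copy the order differed: a peak was held by 3.47% of INE-1 copies under 200 bp, 10.1%, 16.1% and 23.1% of the next 3 length classes, and 12.5% of the longest. In other families these shares were 1.23%, 4.90%, 6.49%, 4.45% and 1.01%. By count, 46 and 75 of the 157 INE-1 peaks lay in the 2 shortest classes, while in other families the most, 45 of 130, lay in copies of 1000 to 3000 bp. Repeated middles became more frequent with length, at 16.6% of copies under 200 bp and 93.1% of those over 3000 bp outside INE-1. The copies under element peaks had a median length of 445 bp, against 366 bp for all annotated copies. A peak is wider than a short copy: the median share of an element peak's length inside elements was 77.8%, and in the lowest case 9.5%.

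**Figure D4:**
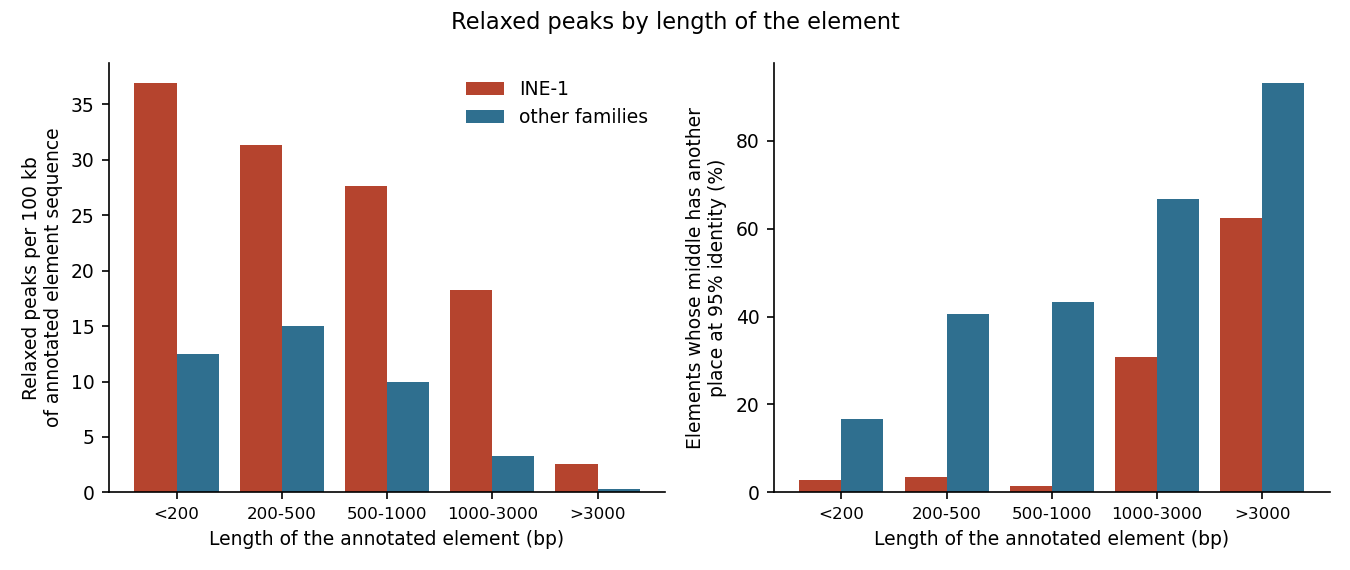
Relaxed peaks per 100 kb of annotated element sequence (left) and the share of elements whose middle has another place at 95% identity (right, %), by length of the annotated element in bp, for INE-1 (red) and other families (blue). In other families the density was 0.258 per 100 kb and the repeated share 93.1% above 3000 bp.

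Chromosome 4 held 88 of the 287 element peaks (30.7%, interval 25.6 to 36.2%), against 2.05% of all relaxed peaks. On this small chromosome 14.3% of its 614 relaxed peaks lay in elements, and elements cover 24.8% of it. On the other arms the share of peaks in elements was between 0.416% on 3R and 1.21% on 2R, with element cover of 4.06% and 7.74%. Chromosome 4 had 26.3 peaks per 100 kb of element sequence and 51.9 per 100 kb elsewhere, against 1.84 to 3.65 in elements and 21.4 to 26.1 elsewhere on the other arms. Both kinds of sequence were thus denser in relaxed peaks there. INE-1 made up 26.1% of element sequence on chromosome 4, against 3.08 to 6.62% on the other arms, and had 56.5 peaks per 100 kb there, against 17.4 to 26.9. Peaks outside INE-1 reached 12 per 100 kb on chromosome 4, against 0.725 to 1.96.

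Element peaks on chromosome 4 were not strong ones. Their median signal was 24.2 and their highest 53.4, and none was in the IDR list. The replicates differed there: replicate 2's own list had 86 element peaks on chromosome 4 among 261 (33.0%) and replicate 3's list 68 among 331 (20.5%). Of the 4 IDR peaks, 3 were on 2L and 1 on X. By count 2R had 62 element peaks, 2L 46, 3L 33, X 30 and 3R 28.

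The arms other than chromosome 4 had 199 element peaks, and 82 of them (41.2%, interval 34.6 to 48.1%) lay within 5 Mb of the centromeric end of the assembled arm, against 6.90% of all relaxed peaks on these arms. Annotated elements are placed alike, with 44.5% of their sequence in the same range. The median distance was 5.35 Mb for element peaks and 14.9 Mb for peaks outside elements. Relative to the sequence present, the density in elements was 2.42 per 100 kb within 5 Mb and 2.77 beyond, while outside elements it was 9.00 per 100 kb within 5 Mb and 26.4 beyond. In the first Mb elements had 0.620 per 100 kb and other sequence 1.20. The order in elements depends on the distance chosen: within 8 Mb it was 3.15 per 100 kb and beyond it 1.80, with 145 of the 199 element peaks (72.9%) on 60.5% of the element sequence. The bins from 5 to 6 and 6 to 8 Mb were the densest in elements, at 5.54 and 4.79.

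**Figure D5:**
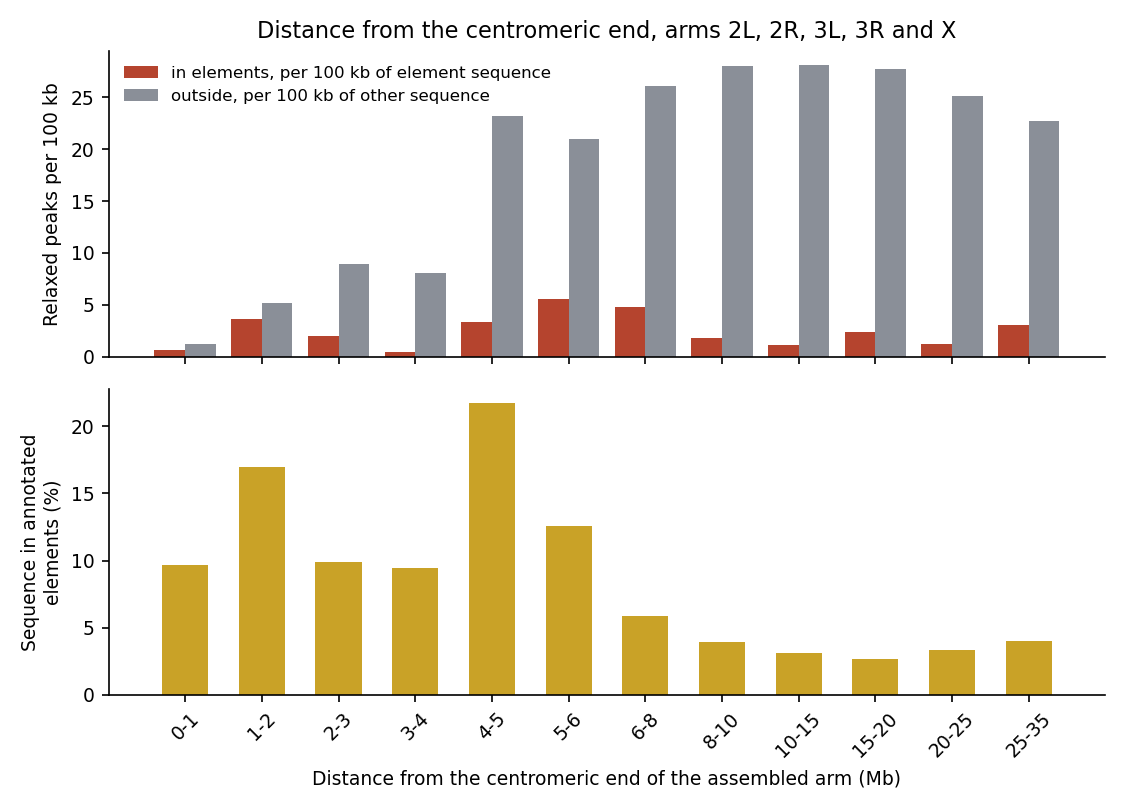
Relaxed peaks per 100 kb of sequence (upper panel) in elements (red) and outside them (grey), and the share of sequence in annotated elements (lower panel, %), by distance from the centromeric end of arms 2L, 2R, 3L, 3R and X in Mb. In elements the density was 0.620 in the first Mb, lowest at 3 to 4 Mb (0.422) and highest at 5 to 6 Mb (5.54), while outside them it was 1.20 in the first Mb and highest at 10 to 15 Mb (28.1).

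Element peaks lay away from promoters. A summit within 500 bp of a TSS was seen for 38 (13.2%), against 9000 of all 30000 relaxed peaks. Another 125 were intronic (43.6%, against 41.2%), 21 exonic (7.32%, against 11.6%) and 103 intergenic (35.9%, against 17.2%). The median distance to a TSS was 1967 bp for element peaks and 1416 bp for peaks outside elements. The lower signal was seen within most of these places. Intronic element peaks had a median percentile of 32.3, against 46.3 for intronic peaks outside elements, and intergenic ones 33.0, against 44.6. At promoters the values were 45.1 in elements and 67.2 outside. Exonic peaks were nearly alike, at 35.1 in elements and 36.1 outside.

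Summits were spread along the annotated elements when placed by fraction of each copy's own length. Cut into 4 equal parts of their length from the 5′ end, the elements held 67, 75, 67 and 78 element peaks in these parts. For INE-1 the parts held 28, 43, 44 and 42. Annotated INE-1 copies had a median length of 146 bp, and summits were not placed on a sequence common to the family. Whether they share a place in it was therefore not tested. The median summit lay 92.0 bp from the nearer edge. Within 10 bp inside an edge there were 21 summits, and 29 relaxed peaks lay within 10 bp outside one. Within 50 bp of the edge lay 86 of the 287 summits. Which peaks count as element peaks thus depends in part on the annotated borders. Mean GC content of the windows was 35.8% for element peaks and 38.3% for peaks outside elements. The word ACAGTG, searched on both strands and chosen from earlier results of these data, occurred in 22 windows of element peaks (7.67%), against 11.2% of all relaxed windows and 19.8% of IDR windows. INE-1 peaks held it in 6 of 157 (3.82%) and other element peaks in 16 of 130 (12.3%). None of the 4 printed windows held it.

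The annotation was checked by sequence. The summit base aligned to another annotated copy of the same family for 254 of 287 element peaks (88.5%), against 91.8% of the middles of annotated elements. For INE-1 it was 150 of 157 (95.5%) and for other families 104 of 130 (80.0%). The 33 element peaks without such a match lay in 25 elements and had a median signal of 25.7, at most 49.1. None of these was in the IDR list, and 8 were in both replicates (24.2%), against 48 of the 254 with a match (18.9%). The interval with most of them, named after its values were seen, was roo{}850, an 8922-bp interval in grh, the gene of the epidermal transcription factor Grainy head. It held 5 peaks with signals of 24.1, 39.0, 27.7, 21.7 and 38.0, of which 4 were in both replicates, and none of the 5 summits aligned to another roo copy. They were 5 of the 6 roo peaks, so the data for roo describe this interval rather than the family. Likewise FB{}1604 on 3L held 3 peaks with signals of 19.9, 27.8 and 25.6 that aligned to no other FB copy, 2 of them in SPoCk, a Golgi calcium pump gene.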

How the data were processed

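The 4 deposited dm6 lists used here are narrowPeak tables: relaxed peaks of replicate 2, of replicate 3 and of both together, and the list past the IDR threshold. Per the labels, chromatin was sonicated (size range 200 to 800, without a unit). Per the deposited file lists, peaks were called against a control. The aligner, caller, IDR threshold and depth: not given in the sources used here. The signal per peak is the authors' deposited value and was used within a list only. The −log10 q-value per peak, as deposited by the authors, was used only to describe the lists. The dm3 lists were not used.

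The summit was column 2 plus column 10, written 1-based. Ensembl release 115 gave elements, genes and TSSs, and RefSeq's Release 6 genome gave the bases. The 5734 elements in both annotations had the same coordinates, and 0 peaks ran past a sequence end. A summit in nested elements went to the shortest one. The class of each family was assigned from general knowledge. A peak counted as present in a replicate when a summit lay within 100 bp. Near-identical copies and family matches were searched with blastn 2.17.0, the latter over up to 300 bp to each side of the base within the element. Python 3.11.15 with pandas 2.3.3, numpy 2.4.6 and scipy 1.17.1 was used. Placement and counting were tested on simulated data. Shares carry 95% Wilson intervals, which cover counting error only. With 1 group and peaks as members no test was made.

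The members and lists were chosen with earlier results of these data known. The rule named the peaks in the IDR list, the 10 of highest signal, the highest of each of the 8 largest families and the 5 with the best ranks in both replicates, 15 in all. Among the largest families S, Tc1 and roo tied. S and Tc1 were taken in order of name, and the highest roo peak is given with roo{}850. Families named were the 10 with most peaks (11 with a tie), the 5 densest with at least 5 peaks, and a fixed list with telomeric and ribosomal DNA families, roo, gypsy, copia, hobo and FB. TAHRE and P-element, also in that list, were not analysed here.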

Additional observations from a re-analysis of the deposited data

How the results depend on the processing

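The limits are those of the lists: 2 libraries, no reads, no control and no rule for reads with several places, so values for repeated elements may be too low by an amount that cannot be estimated here. Of 111 values under alternatives, 72 moved by less than their spread and 39 by more. For the median percentile the spread was its standard deviation over replicates, 2.21. Leaving out Y and unplaced sequences kept all 287 element peaks, so the values of that setting could not move, and the 72 include them. With a single replicate's own list in place of the pooled list, the share of element peaks was 0.870 to 1.10%. Their share on chromosome 4 was 20.5 to 33.0% and their median percentile 35.8 to 38.9. Of replicate 3's element peaks 17.5% were present in replicate 2, and of replicate 2's 20.7% in replicate 3. These 2 shares have another base than those of the pooled list, which shares reads with both replicates. With at least 50% of the peak in elements the share was 0.817%, INE-1 had 48.6% and the median percentile was 32.9. With 1 bp enough, it was 2.30% of the list, with 50.7% near the centromeric end, 23.5% on chromosome 4, 19.6% at promoters and percentile 39.2. Among the 15000 peaks of highest signal the share was 0.640%, with 4.17% in the IDR list, 76.0% in replicate 2, 66.7% in replicate 3, 47.9% in both, 18.8% at promoters and percentile 64.3. Against the 1352 strongest IDR peaks 0.348% were in the list. With summits within 50 bp, 46.3% were in replicate 2, 38.0% in replicate 3 and 10.8% in both. Within 200 bp these were 63.1%, 55.7% and 27.9%, and for overlapping peaks 69.7%, 64.1% and 39.0%. Near the centromeric end were 42.5% within 2 Mb and 81.2% within 8 Mb, against 59.2% within 5 Mb with chromosome 4 counted as near. The percentile among intronic and intergenic peaks was 38.8. Another place was found for 7.32% at 90% identity and 0.697% at 99%. In alternatives chosen after seeing the data, the share was 0.677% without chromosome 4, where 41.2% were near the centromeric end and 0% on chromosome 4, and 0.847% with only summits that aligned to another copy of the family. Some of these shifts follow from the setting itself. Examples are 0% on chromosome 4 without it, and the higher percentile and IDR share among the peaks of highest signal. The cause of the other shifts was not tested. No paired analysis was possible because there is 1 group.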

Other observations

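In all, 18 elements held 2 or more element peaks, up to 5 in 1 element. Genes with several element peaks between their ends were CG9380 and grh on 2R with 5 each, out of 39 and 19 relaxed summits, and Kif3C and PlexA on chromosome 4 with 4 each, out of 9 and 10. PlexA encodes a receptor for semaphorins, and its peaks on HB{}1548 had signals of 20.2 and 22.6. INE-1{}4159 in ci, the transcription factor gene of the Hedgehog pathway, held peaks with signals of 25.9 and 22.2. These genes were chosen after their values were seen.

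The piRNA source locus lncRNA:flam, 69.1% of which is annotated element sequence, had 2 relaxed summits between its ends on X. Both were element peaks, at INE-1{}2044 with a signal of 25.7 and at Cr1a{}228 with 19.5, and neither was in both replicates. That is 1.26 relaxed summits per 100 kb, against 20.4 on X as a whole, but X as a whole is mostly unlike this locus. Annotated elements on X had 2.32 per 100 kb. INE-1{}2044 lay 1.91 Mb from the centromeric end, and its summit aligned to no other INE-1 copy. From 1 to 2 Mb the arms other than chromosome 4 had 3.64 per 100 kb in elements and 5.13 outside them. With only 2 summits, whether the locus differs from such sequence was not tested.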
